A study of Mus musculus with 9 samples.

Results

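The genes described here are 5 actins (Actb, Actg1, Acta1, Acta2 and Actc1) and 4 tropomyosins (Tpm1, Tpm2, Tpm3 and Tpm4). They were taken by gene symbol, through their Ensembl identifiers, from a table of read counts for 47729 mouse genes. All 9 were found, and all 9 passed the filter on low values, which kept genes reaching 1 CPM (read counts scaled to the size of the library) in 3 or more libraries and left 13324 genes to test. The libraries came from C2C12, a mouse cell line of myoblasts; these precursors of muscle fuse into multinucleate myotubes once serum-rich medium is replaced. The control population had received a guide RNA without a target and is called WT, as in the labels. In the Per1KO population Per1 had been targeted with CRISPR-Cas9, and in the Per2KO population Per2 had been; both genes encode repressors of the circadian clock. Each population was sampled in growth medium (day 0) and on days 3 and 5 after the change to horse serum, and 1 library was sequenced for each population and day.

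Actin monomers join into filaments that every cell needs for its shape and movement, and tropomyosins are rod-like dimers that lie along those filaments and govern which proteins can bind them. Actb (β-actin) and Actg1 (γ-actin) encode the cytoplasmic actins, Acta1 (skeletal α-actin) and Actc1 (cardiac α-actin) those of the striated muscle sarcomere, and Acta2 the smooth muscle α-actin. Cardiac α-actin is also made in embryonic and cultured skeletal muscle, and smooth muscle α-actin appears for a time in differentiating myoblasts. Tpm1 and Tpm2 give the main tropomyosins of sarcomeric thin filaments, Tpm3 gives slow-muscle and cytoplasmic forms, and Tpm4 is chiefly cytoplasmic. Tpm1, Tpm2 and Tpm3 each make muscle and cytoplasmic proteins by alternative splicing, which counts per gene do not separate.

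Total counts ran from 5020385 to 6773320 for WT and from 41997763 to 48051824 for the knockouts, and a lane suffix stands in the WT titles alone. Genotype therefore cannot be told apart from depth or lane in any comparison with WT. The labels do not say whether a knockout population was 1 clone. They name whole muscle as the tissue, while the growth protocol describes cultured C2C12 cells. All 5 myoblast markers (Myod1, Myf5, Des, Cdh15 and Pax7) were detected in every library. The targeted mRNAs were still counted: Per1 was at 31.01 to 35.6 CPM in WT and 20.9 to 32.4 in Per1KO, and Per2 at 9.74 to 20.5 in WT and 3.50 to 9.13 in Per2KO. In the population where the other gene was targeted, Per2 was at 6.59 to 10.6 CPM (Per1KO) and Per1 at 16.5 to 32.9 (Per2KO). Per1 overlapped between WT and Per1KO, and neither level tests the edit itself.

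From day 0 the muscle actins, Tpm1 and Tpm2 rose in all 3 populations, while the cytoplasmic actins and Tpm4 fell. In edgeR's quasi-likelihood test on an additive model of genotype and day, 5 of the 9 genes rose between day 0 and day 5 (Acta1, Actc1, Acta2, Tpm1 and Tpm2) and 3 fell (Actb, Actg1 and Tpm4). The day 3 comparison called the same 8 genes in the same directions. Of all genes tested, 18.1% were called higher and 16.9% lower on day 3, and 23.2% higher and 22.9% lower on day 5. The median fitted log2 fold change on day 5 was 1.67 over the 9 genes and -0.01 over all genes. Tpm3 passed in neither comparison. Levels are given as CPM with TMM scaling (edgeR's trimmed-mean factors), and adjusted p-values are Benjamini-Hochberg values over all 13324 genes. They measure only the spread between these libraries, in which populations stand in for replicates of a day. In bulk libraries fewer cells of a type and less RNA per cell cannot be told apart. Scaled by library totals alone, the median of all genes shifted by -0.11 on day 3 and -0.16 on day 5, and the share of calls that were higher went from 51.8% to 39.4% and from 50.3% to 36.4%.

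**Figure D1:**
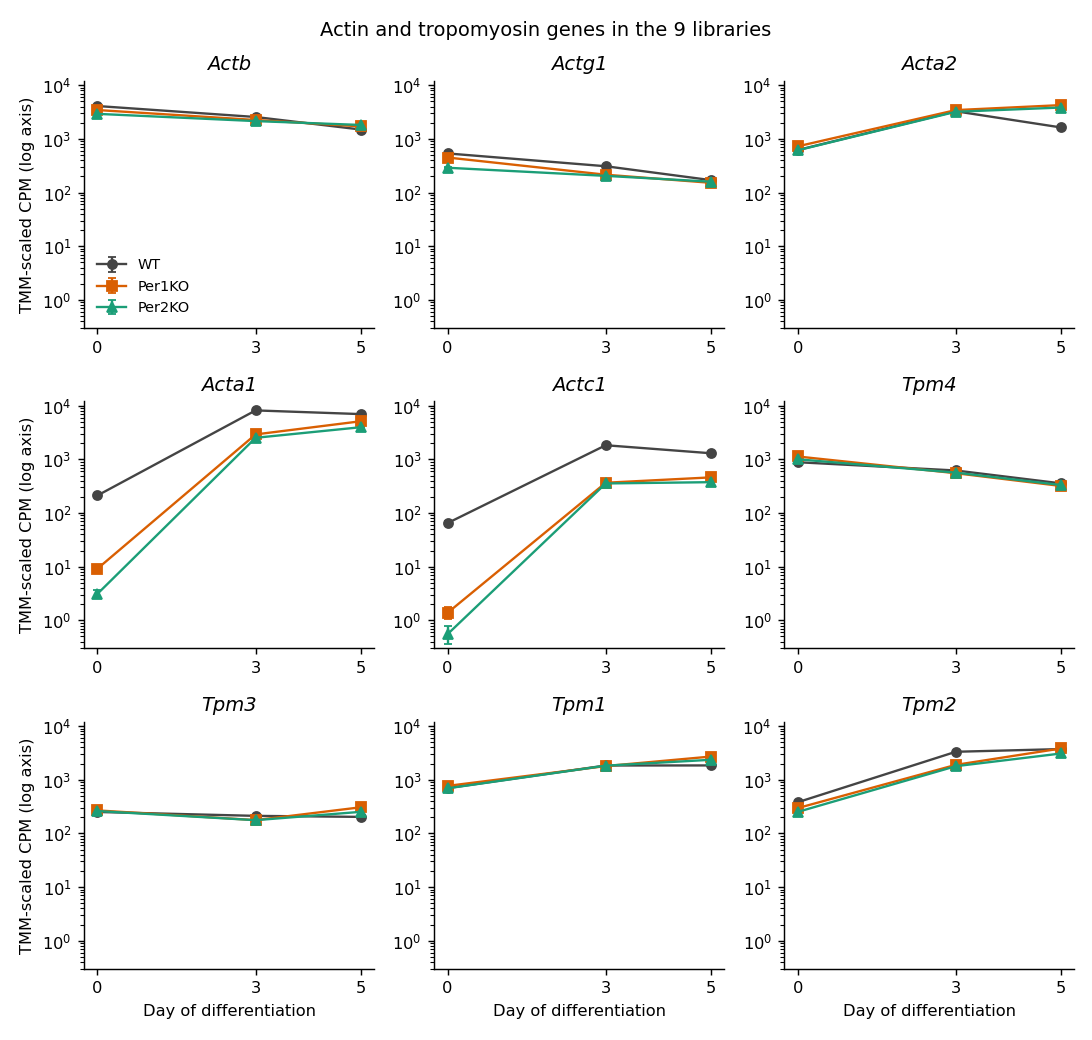
Level of each gene (TMM-scaled CPM, log axis) against day of differentiation in WT, Per1KO and Per2KO. Each point is 1 library and bars are 95% counting intervals, mostly hidden by the points; Acta1 and Actc1 span the widest range and start lowest in the knockout libraries.

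The 2 sarcomeric actins showed the largest changes of the 9 genes. Acta1 was at 212 CPM in WT on day 0, 8173 on day 3 and 6973 on day 5. The same days gave 9.17, 2916 and 5141 CPM in Per1KO, and 3.11, 2523 and 3977 CPM in Per2KO. Every differentiated library thus lay above every day 0 library, by 32.9-fold in WT, 561-fold in Per1KO and 1279-fold in Per2KO on day 5. The fitted log2 fold change was 7.28 ± 1.17 (SE) on day 3 (adjusted p = 0.00318) and 7.88 ± 1.21 on day 5 (adjusted p = 0.00163).

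Actc1 followed a similar course. It went from 64.8 CPM on day 0 to 1833 and 1298 in WT, from 1.38 to 367 and 462 in Per1KO, and from 0.551 to 356 and 376 in Per2KO. The 3 day 0 libraries did not overlap the later ones. Its fitted log2 fold change was 6.81 ± 1.08 on day 3 (adjusted p = 0.00300) and 6.90 ± 1.10 on day 5 (adjusted p = 0.00187). Day 0 of the knockout libraries rested on few reads, 68 counts in Per1KO and 28 in Per2KO, against 459 in WT.

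Acta2, the smooth muscle α-actin, was already at 614 to 727 CPM on day 0 and rose about as much in each population by day 3. It went from 620 to 3275 CPM in WT, from 727 to 3448 in Per1KO and from 614 to 3208 in Per2KO. Its day 5 levels were 1634 CPM in WT, 4272 in Per1KO and 3850 in Per2KO. WT was thus the low library on day 5 and no day 0 library reached any later one. The fitted log2 fold change was 2.35 ± 0.28 on day 3 (adjusted p = 7.53e-04) and 2.25 ± 0.28 on day 5 (adjusted p = 5.40e-04). Of the smooth muscle markers, Myh11, the smooth muscle myosin, and Myocd, the coactivator myocardin, stayed under 1 CPM in all 9 libraries, and all 6 together ranged from 83.4 to 214 CPM, most of it smoothelin (Smtn).

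The cytoplasmic actins declined. Actb, per kilobase of transcript the most abundant of the 9 genes on day 0, went from 4105 to 2564 and 1494 CPM in WT, from 3456 to 2255 and 1712 in Per1KO, and from 2934 to 2150 and 1821 in Per2KO. Levels fell at each step in each population, and no 2 days overlapped. The fitted log2 fold change was -0.59 ± 0.17 on day 3 (adjusted p = 0.0297) and -1.05 ± 0.17 on day 5 (adjusted p = 0.00183). Actg1 went from 537 to 310 and 170 CPM in WT, from 450 to 215 and 152 in Per1KO, and from 290 to 205 and 159 in Per2KO. Days 0 and 3 overlapped, since WT on day 3 lay above Per2KO on day 0, whereas day 5 lay below both. Its fitted log2 fold change was -0.80 ± 0.17 on day 3 (adjusted p = 0.0101) and -1.36 ± 0.17 on day 5 (adjusted p = 5.89e-04). The day 3 calls of these genes were fragile: that of Actb was lost without WT day 0, Per1KO day 0, 3 or 5, or Per2KO day 3 (adjusted p up to 0.141), and that of Actg1 without Per1KO day 0 or 3, or Per2KO day 3 (up to 0.0642).

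The promoters of Acta1, Actc1 and Actg1 are shown because 2 of these genes rose steeply and 1 fell while all 3 carry a CArG box, the sequence bound by serum response factor (SRF), close to their start. The RefSeq promoter table (build GRCm38.p6) matched 8 of the 9 genes, all but Actb. The stretches, 5′ to 3′ on the minus strand, begin 150 bases upstream of the start, and the CArG box is in capitals, as is the MCAT element (CATTCC) of Acta1, the binding sequence of TEAD factors.
Acta1 (chr8:123894806-123894925): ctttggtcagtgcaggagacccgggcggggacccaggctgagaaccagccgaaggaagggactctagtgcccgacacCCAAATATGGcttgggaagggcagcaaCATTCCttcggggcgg
Actc1 (chr2:114052906-114053025): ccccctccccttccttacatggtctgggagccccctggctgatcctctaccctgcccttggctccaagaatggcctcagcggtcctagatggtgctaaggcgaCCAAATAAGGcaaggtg
Actg1 (chr11:120348543-120348645): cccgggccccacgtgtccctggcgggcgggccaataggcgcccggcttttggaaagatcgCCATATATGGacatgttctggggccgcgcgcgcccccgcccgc
The CArG box lay 73 to 64 bases upstream of the RefSeq start in Acta1, 47 to 38 in Actc1 and 90 to 81 in Actg1. These starts differ from those of the gene annotation used elsewhere here (GENCODE M21). By that annotation the Actc1 stretch lies within the gene, outside its exons. The Actg1 stretch is shorter because it stops where the annotated gene begins. In the 250 bases upstream of the start, both strands searched, a CArG box was found in 3 of the 8 genes and in 1.47% of 32851 RefSeq promoters. MCAT was found in 3 of the 8 (Acta1, Acta2 and Tpm1) and in 12.6% of all promoters. The E-box (CANNTG), a general sequence of which the MyoD family binds some forms, was found in 6 of the 8 and in 66.2%. The Actg1 match to it was CACGTG. A MEF2 site was found in none of the 8 and in 2.92% of all promoters. No match overlapped one of another motif, and a match says only that these letters occur there.

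Set against transcript length (CPM per kilobase of the longest annotated transcript), the actin pool changed its make-up as well as its size. Actb and Actg1 together made up 83.0% of actin counts per kilobase in WT on day 0, 14.9% on day 3 and 11.7% on day 5. The corresponding shares were 84.8%, 24.5% and 14.0% in Per1KO, and 84.6%, 25.6% and 17.4% in Per2KO. The day 0 share thus lay within a narrow range, and each later library was far below it.

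Acta1 and Actc1 together went from 6.56% to 69.0% and 77.4% in WT. They went from 0.304% to 43.2% and 55.8% in Per1KO, and from 0.127% to 41.5% and 50.7% in Per2KO. The knockout libraries therefore held a smaller share of the sarcomeric actins on each day. Acta2 made up 30.3% of the pool on day 5 in Per1KO and 31.9% in Per2KO but 10.9% in WT. With raw counts in place of counts per kilobase, Acta1 and Actc1 made up 42.7% to 71.5% on day 5 over the 3 populations, and with lengths counted in 31-base stretches unique to the gene 46.9% to 72.9%. These shares describe single libraries and were not tested.

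The whole actin pool per kilobase grew from 2908 to 9999.9 CPM per kilobase in WT by day 3 and stood at 7372 on day 5. In Per1KO it was 2395, 5244 and 6938 CPM per kilobase, and in Per2KO 1981, 4787 and 5928. WT peaked on day 3 whereas both knockout populations were highest on day 5. The actins together took 0.414% to 0.579% of all counts on day 0 and 0.996% to 1.13% on day 5.

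**Figure D2:**
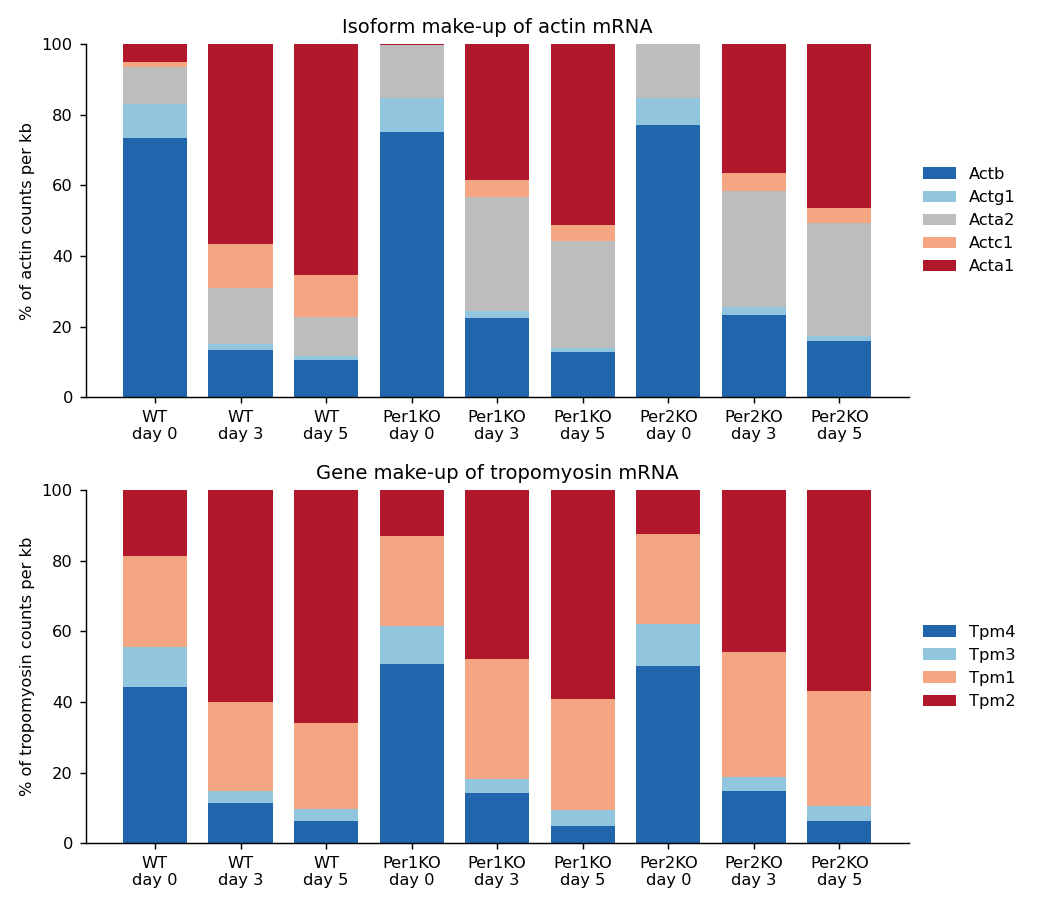
Share of each gene in the actin pool (top) and the tropomyosin pool (bottom), in percent of counts per kilobase, with 1 bar per library. Actb fills most of each day 0 actin bar, Acta1 makes up 46.4% to 65.4% of the pool on day 5, and the Acta2 band is wider in the knockout bars on days 3 and 5.

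Within the sarcomeric pair, Acta1 led Actc1 in every library. The ratio of Acta1 to Actc1 per kilobase was 3.33, 4.54 and 5.47 on days 0, 3 and 5 in WT. It was 6.77, 8.10 and 11.3 in Per1KO, and 5.75, 7.23 and 10.8 in Per2KO. It increased with each day in every population, and the knockout values lay above the WT values of the same day.

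Among the tropomyosins, Tpm2 (β-tropomyosin) rose most. It went from 381 to 3328 and 3738 CPM in WT, from 296 to 1897 and 3841 in Per1KO, and from 252 to 1792 and 3094 in Per2KO. All later libraries lay above all day 0 libraries. The fitted log2 fold change was 2.89 ± 0.19 on day 3 (adjusted p = 8.24e-05) and 3.55 ± 0.19 on day 5 (adjusted p = 1.27e-05).

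Tpm1 (α-tropomyosin) was, per kilobase, the more abundant of the pair before differentiation and had the smaller fold change. It went from 699 to 1847 and 1851 CPM in WT, from 769 to 1801 and 2713 in Per1KO, and from 693 to 1832 and 2362 in Per2KO. Days did not overlap, and on day 3 the 3 populations lay within 1801 to 1847 CPM. The fitted log2 fold change was 1.35 ± 0.15 on day 3 (adjusted p = 5.93e-04) and 1.67 ± 0.15 on day 5 (adjusted p = 1.11e-04).

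Tpm4, the cytoplasmic form, fell from 885 to 620 and 356 CPM in WT, from 1131 to 552 and 319 in Per1KO, and from 1004 to 566 and 332 in Per2KO. The 3 days formed separate bands in which the populations differed little. The fitted log2 fold change was -0.80 ± 0.14 on day 3 (adjusted p = 0.00430) and -1.59 ± 0.14 on day 5 (adjusted p = 1.06e-04). Tpm3 was at 251, 213 and 203 CPM in WT, 269, 177 and 308 in Per1KO, and 261, 177 and 253 in Per2KO. It was lowest on day 3 in both knockout populations and on day 5 in WT. Its fitted log2 fold change was -0.46 ± 0.16 on day 3 (adjusted p = 0.0605) and -0.04 ± 0.16 on day 5 (adjusted p = 0.865). On day 3 it did pass by DESeq2, with library totals, in the knockout libraries alone, and without WT day 3 or WT day 5 (adjusted p over all alternatives 0.00236 to 0.255).

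Per kilobase of the longest transcript, Tpm4 was the leading tropomyosin on day 0 and Tpm2 on day 5 in every population. With the median length of coding transcripts instead, Tpm1 (32.9%) lay above Tpm4 (32.1%) in WT on day 0. Tpm4 made up 44.3% of tropomyosin counts per kilobase in WT on day 0, 50.8% in Per1KO and 50.3% in Per2KO, and on day 5 6.41%, 5.02% and 6.23%. Tpm2 went from 18.7% to 65.8% in WT, from 13.0% to 59.2% in Per1KO and from 12.3% to 56.9% in Per2KO. Tpm1 kept 24.5% to 25.8% of the pool in the WT libraries on all 3 days, while in the knockout libraries it went from 25.4% and 25.6% on day 0 to 31.5% and 32.7% on day 5. Tpm3 made up at most 11.7%, or at most 17.95% with the median length of coding transcripts.

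**Figure D3:**
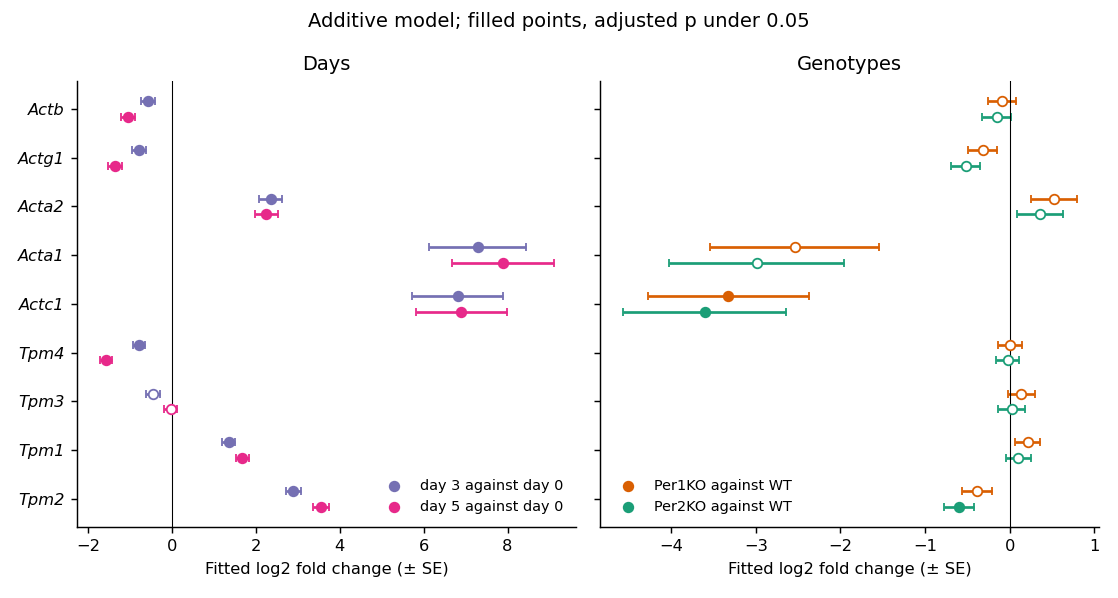
Fitted log2 fold change of each gene for days 3 and 5 against day 0 (left) and for each knockout against WT (right), with bars of 1 standard error. Filled points have an adjusted p-value under 0.05; the day effects on Acta1 and Actc1 exceed 6 and carry the widest errors.

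Between days 3 and 5 edgeR's quasi-likelihood test called 1 of the 9 genes, Tpm4, with a log2 fold change of -0.79 ± 0.14 (adjusted p = 0.0377); 1.09% of all genes were called lower in that comparison. DESeq2 called 2 of the 9 and 733 of all 13324 genes. The fit of the 6 knockout libraries alone called 4 of the 9, of which 3 were higher. It called 1355 of 12905 genes, of which 717 were higher. The Tpm4 call by edgeR held without WT day 0 and was lost without any other library (adjusted p over all alternatives 2.15e-05 to 0.345). For the other 8 genes edgeR's adjusted p ranged from 0.129 to 0.978. The populations moved in different directions over this step: from day 3 to day 5, Acta1 went to 0.853 of its day 3 level in WT, 1.76 in Per1KO and 1.58 in Per2KO. Actc1 went to 0.708, 1.26 and 1.06 of its day 3 level, and Acta2 to 0.499, 1.24 and 1.20. Tpm2 was 1.12, 2.02 and 1.73 times its day 3 level. These are ratios of single libraries, and the difference between populations over this step was not tested.

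Of the 9 genes the sarcomeric actins stood farthest from WT in the knockouts, with the most extreme ratios on day 0. Against WT, the additive model called Actc1 lower in Per1KO (log2 fold change -3.33 ± 0.95, adjusted p = 0.0473) and in Per2KO (-3.61 ± 0.97, adjusted p = 0.0370), and Tpm2 lower in Per2KO (-0.60 ± 0.18, adjusted p = 0.0482). Of all genes, 10.1% were called lower in Per1KO and 10.6% in Per2KO, so 1 of 9 and 2 of 9 are near the background. With library totals 58.0% of the calls in Per1KO and 57.8% in Per2KO were higher, against 47.9% and 46.8%. Acta1 had similar estimates with larger errors and was not called (-2.54 ± 1.00 in Per1KO, adjusted p = 0.117; -2.99 ± 1.03 in Per2KO, adjusted p = 0.0827). Both knockouts were compared with the same WT libraries.

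These calls were close to the threshold. That of Actc1 in Per1KO held without WT day 0, WT day 5 or Per2KO day 0 and was lost without any of the other 6 libraries, as it was with library totals, with no filter, with a filter at 10 CPM and with only the 6 libraries compared (adjusted p over all alternatives 0.00336 to 0.244). Of the 9 libraries left out in turn, the call of Actc1 in Per2KO held without WT day 0 or WT day 5 (0.00142 to 0.214), and that of Tpm2 without WT day 5 (0.00719 to 0.216). Acta1 in Per2KO was called by DESeq2 and without WT day 0 or WT day 5 (0.0187 to 0.334). Without WT day 0 the log2 fold changes came down to -1.82 in Per1KO and -2.19 in Per2KO for Actc1, and to -0.80 and -1.46 for Acta1.

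On single days the distance from WT shrank as differentiation went on. Acta1 in Per1KO was at 0.0432 of the WT level on day 0 (95% counting interval 0.0388 to 0.0480), 0.357 on day 3 and 0.737 on day 5. In Per2KO it was at 0.0147 (0.0124 to 0.0173), 0.309 and 0.570. Actc1 was at 0.0213 of the WT level (0.0162 to 0.0275), 0.200 and 0.356 in Per1KO, and at 0.00850 (0.00559 to 0.0125), 0.194 and 0.290 in Per2KO. In all 6 pairs of libraries each of these genes was lower in the knockout. The intervals cover counting error only, as the reads carry no molecular identifiers and each pair has no replicate.

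The early myocyte and myotube markers also rose from day 0, and their sum was lower than in WT in both knockouts on each day. Summed over Myog, Mymk, Mymx, Myh3, Myh8 and Ckm, all present in every library but for Myh8 at 0 in Per2KO on day 0, they stood at 381 CPM in WT on day 0 against 19.0 in Per1KO and 10.0 in Per2KO. On day 3 they were at 7521, 3465 and 3205 CPM, and on day 5 at 10081, 5173 and 3992. From day 3 to day 5 the sum rose in WT, where Acta1 and Actc1 fell. Most of the sum on days 3 and 5 was Myh3, at 7214 CPM in WT on day 5. Ckm went the other way on day 5, at 276 CPM in WT, 435 in Per1KO and 332 in Per2KO. The 4 adult fibre markers summed to 166, 198 and 135 CPM on day 3 and 791, 553 and 322 on day 5. The part of these markers in the actin result was not tested. The 3 fibroblast markers summed to 13.9 to 74.1 CPM on day 0 and 552 to 823 CPM later, nearly all of it decorin (Dcn), with Thy1 at 0; their part was not tested either. Markers of endothelium (3 genes) and adipocytes (2 genes) were under 1 CPM in all libraries, with Adipoq at 0, and the 3 leukocyte markers summed to at most 2.20 CPM, with Adgre1 at 0. The 2 erythroid markers summed to at most 2.12 CPM, with Hbb-bs at 0. The 5 cardiac markers summed to 1.54 to 33.9 CPM, with Nppa and Ryr2 under 1 CPM.

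**Figure D4:**
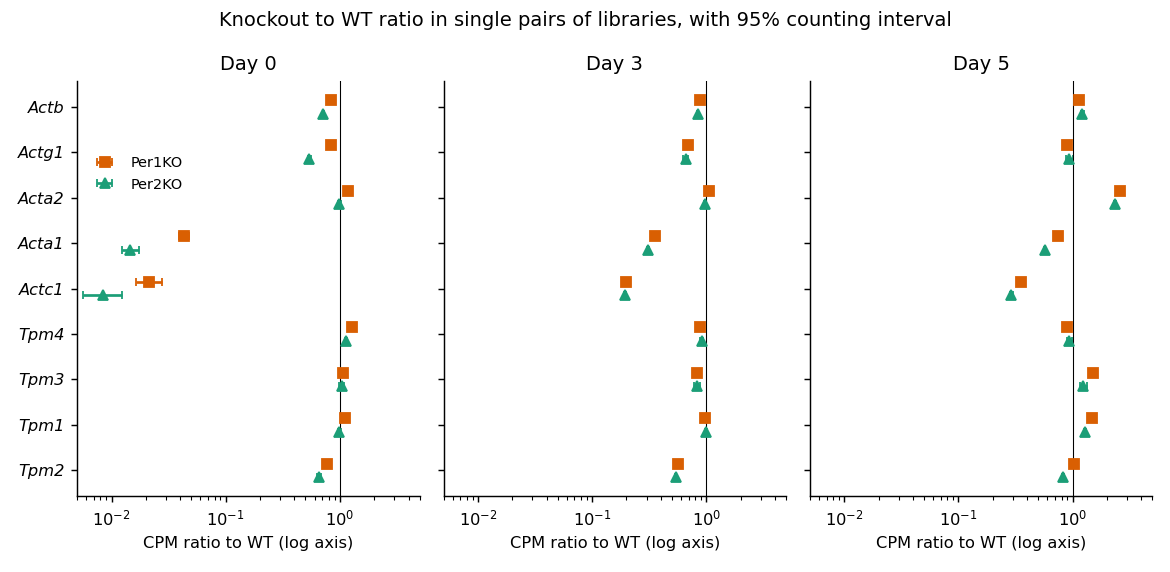
Ratio of each knockout library to the WT library of the same day for the 9 genes (log axis), with 95% counting intervals. Acta1 and Actc1 lie at 0.00850 to 0.0432 on day 0 and come closer to 1 on days 3 and 5, and Acta2 lies at 2.36 and 2.61 on day 5.

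The other genes stayed within about a factor of 3 of WT on each day. Acta2 was at 1.17 and 0.991 of WT on day 0 in Per1KO and Per2KO, at 1.05 and 0.980 on day 3, and at 2.61 and 2.36 on day 5, where the WT library was the low one. Over all days the fit gave 0.52 ± 0.27 on the log2 scale in Per1KO (adjusted p = 0.214) and 0.36 ± 0.27 in Per2KO (adjusted p = 0.388). Tpm2 was at 0.778, 0.570 and 1.03 of WT in Per1KO over the 3 days and at 0.661, 0.539 and 0.828 in Per2KO, which was lower throughout. Tpm1 and Tpm3 were close to WT on days 0 and 3 and above it on day 5, at 1.47 and 1.28 of WT for Tpm1 and 1.51 and 1.24 for Tpm3. Tpm4 lay between 0.889 and 1.28 of WT throughout, with log2 fold changes of 0.01 ± 0.14 in Per1KO (adjusted p = 0.974) and -0.02 ± 0.14 in Per2KO (adjusted p = 0.926). Actb was below WT on days 0 and 3 in both knockouts and above it on day 5, at 1.15 and 1.22 of WT.

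Actg1 was below WT on all 3 days in both knockouts, at 0.839, 0.695 and 0.892 of WT in Per1KO and 0.541, 0.662 and 0.935 in Per2KO. Fitted over all days this gave -0.32 ± 0.17 on the log2 scale in Per1KO (adjusted p = 0.227) and -0.52 ± 0.17 in Per2KO (adjusted p = 0.0701). Its sequence is widely copied: 57.1% of the 31-base stretches of its longest transcript also occur in another gene, and 5 annotated genes, among them the processed pseudogenes Gm12715, Gm8399 and Actg-ps1, consist of such stretches for at least 50%. The copies held 7.34% to 8.81% of the counts of Actg1 and its copies in WT and 18.6% to 21.4% in the knockouts. With the copies added, the log2 fold change was -0.12 ± 0.17 in Per1KO and -0.31 ± 0.17 in Per2KO (adjusted p = 0.645 and 0.227). Over all alternatives, this one included, adjusted p ranged from 0.147 to 0.645 in Per1KO and from 0.0318 to 0.227 in Per2KO. Of 16 alternatives, 15 did not call Actg1 in Per2KO.

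The test of a differing response to differentiation compared the change from day 0 to days 3 and 5 in each knockout with that in WT. In Per2KO the response of Acta1 exceeded that of WT by 4.81 ± 0.54 on the log2 scale (adjusted p = 0.0226) and that of Actc1 by 4.77 ± 0.47 (adjusted p = 0.0225). These were 2 of the 9 genes, against 1.49% of all genes called higher. In Per1KO the estimates were 3.55 ± 0.51 for Acta1 (adjusted p = 0.0632) and 3.64 ± 0.43 for Actc1 (adjusted p = 0.0521). None of the 9 genes passed edgeR's quasi-likelihood test there, against 0.42% of all genes. By that test 3 of the 9 had an unadjusted p under 0.05, as did 2430 of all 13324 genes. DESeq2 called 2 of the 9 and 564 of the 13324. This model left 2 residual degrees of freedom. It fits the single day 0 library of each population exactly, so these errors and p-values hold only the differences between days 3 and 5 and no spread on day 0, where the levels differ most. With days 3 and 5 taken as 1 state, which leaves 3, adjusted p rose to 0.0909 for Acta1 and 0.0649 for Actc1 in Per2KO.

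Between the knockouts no gene was called by edgeR's quasi-likelihood test (0% of 13324, with 88 at an unadjusted p under 0.05; DESeq2 called 1 gene, not among the 9). The 9 log2 fold changes of Per1KO against Per2KO lay between 0.03 and 0.45, each with an adjusted p of 1.00. On day 0, Acta1 was 2.95 times as high in Per1KO as in Per2KO (counting interval 2.45 to 3.56) and Actc1 2.50 times (1.59 to 4.04), while on day 3 the ratios were 1.16 and 1.03. Whether these 2 populations differ beyond their spread on day 0 has no replicate to test it.

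Genes for proteins that bind actin changed on the same days. Of 7 pairs of related genes, each with a form of striated muscle and another form, 8 of 14 genes rose and 5 fell on day 5 (median log2 fold change 1.14, against -0.01 over all genes, of which 23.2% were called higher and 22.9% lower). Tropomodulin caps the slow-growing filament end: the muscle gene Tmod1 rose by 3.35 ± 0.21 and the widespread Tmod3 had -1.13 ± 0.12. Cofilin severs filaments: the muscle gene Cfl2 rose by 1.46 ± 0.16 and Cfl1 had -1.13 ± 0.16. Cyclase-associated proteins recharge actin monomers: the muscle gene Cap2 rose by 5.71 ± 0.25 and Cap1 had -0.88 ± 0.11.

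The other pairs gave further contrasts. Filamin crosslinks filaments: Flnc rose by 1.53 ± 0.22 and Flna had -1.31 ± 0.15, and among the formins, which elongate filaments, Fhod3 rose by 0.82 ± 0.16 and Fhod1 had -0.87 ± 0.18. α-Actinin anchors thin filaments in the Z-disc: Actn2 rose by 8.14 ± 0.62, with 0 counts in Per2KO on day 0 so that its fitted value depends on the prior count, while Actn4 had 0.07 ± 0.20 and was not called (adjusted p = 0.795). Leiomodins nucleate filaments, and both the smooth muscle gene Lmod1 (4.02 ± 0.33) and the skeletal gene Lmod3 (5.78 ± 0.39) rose. Lmod1 ranged from 0.183 to 5.98 CPM. Every gene of the pairs but Actn4 had an adjusted p under 0.05 on day 5.

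**Figure D5:**
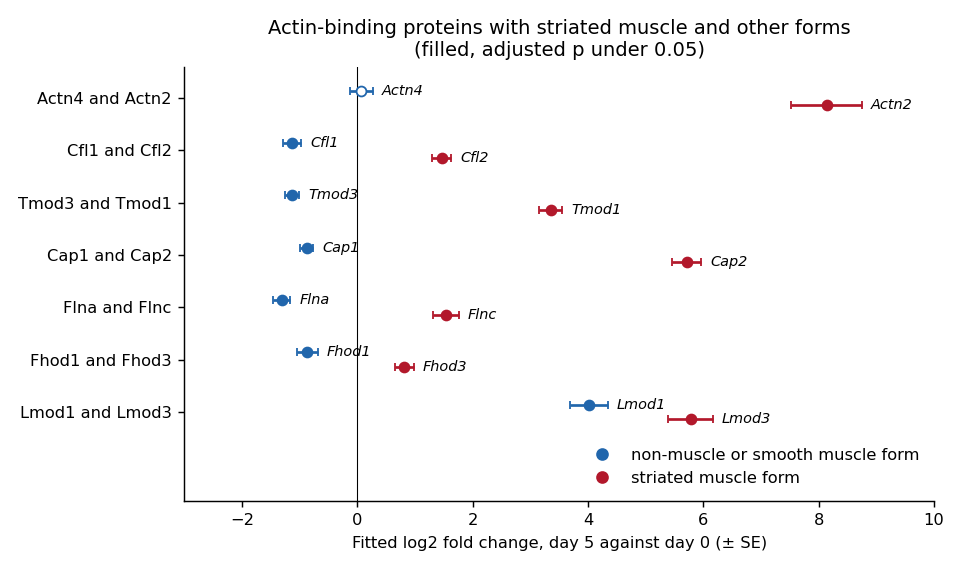
Fitted log2 fold change on day 5 against day 0 for 7 pairs of actin-binding proteins, with bars of 1 standard error. Blue points are the non-muscle or smooth muscle forms and red points the striated muscle forms; in 5 pairs the first fell and the second rose, Actn4 (open point) was not called, and both leiomodins rose.

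Wider lists of the actin machinery are described by their counts on day 5, when 23.2% of all genes were called higher and 22.9% lower. Of 5 pointed-end proteins tested, 4 rose, Lmod2 most (7.92 ± 0.59), and 1 fell (Tmod3). Of 7 genes of thin filament assembly, 5 rose, with nebulin (Neb), the ruler-like protein of the thin filament, at 6.63 ± 0.55, and 1 fell (Fhod1). Of 10 severing and monomer-binding proteins 2 rose and 5 fell. Of 14 stress fibre and cortical proteins 3 rose, with transgelin (Tagln) at 2.26 ± 0.17, and 5 fell, with Tagln2 at -2.09 ± 0.15. Of 4 barbed-end capping genes Capza2 rose by 0.41 ± 0.13 and 2 fell, Capg most (-1.17 ± 0.15). The medians of these lists were 4.02, 1.44, -0.36, -0.31 and -0.16.

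Transcripts of SRF and of its actin-sensing cofactors did not pass the test on day 5. Srf had a log2 fold change of -0.12 ± 0.20, Mrtfa 0.03 ± 0.15 and Mrtfb -0.01 ± 0.22, with adjusted p from 0.653 to 0.964. For each of these genes the value averages opposite movements. From day 0 to day 5 Srf went from 118 to 74.8 CPM in WT, 72.9 to 88.8 in Per1KO and 84.3 to 87.4 in Per2KO. Mrtfb went from 61.9 to 42.9, 42.4 to 46.6 and 37.3 to 48.3 CPM. Mrtfa went from 125 to 118 CPM in WT, 91.2 to 87.5 in Per1KO and 75.9 to 90.0 in Per2KO. The test of a differing response called none of these genes in either knockout. Myocd was too low to test. Of the remaining actin genes, Actg2 (smooth muscle γ-actin) was at 16.7 to 27.5 CPM in WT and 3.47 to 7.60 CPM in the knockouts, which did not overlap (log2 fold change -2.03 ± 0.25 in Per1KO and -1.94 ± 0.24 in Per2KO, adjusted p = 0.00124 and 0.00145), and Actbl2 had 0 counts.

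Within the pairs, the genes called lower than WT were forms of striated muscle. In Per1KO 3 of the 14 genes of the pairs were called lower and in Per2KO 4, and none higher in either, where 10.1% and 10.6% of all genes were called lower. Cap2 had -3.87 ± 0.22 in Per1KO and -4.29 ± 0.23 in Per2KO, Actn2 -3.52 ± 0.49 and -3.88 ± 0.50, and Tmod1 -1.39 ± 0.19 and -1.65 ± 0.20. Lmod3 was called in Per2KO only (-1.23 ± 0.33, adjusted p = 0.0378; in Per1KO -1.03 ± 0.33, adjusted p = 0.0655), and the difference between the knockouts was not called for any gene. Cap2 was at 4.52, 76.6 and 170 CPM in WT, 0.162, 5.07 and 14.4 in Per1KO, and 0.138, 4.57 and 8.79 in Per2KO. Both knockouts lay below WT on each day, day 5 included. Cfl2 and Flnc were not called in either knockout, with log2 fold changes from -0.23 to 0.34.

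Over the 9 libraries Acta1 and Actc1 ran together (Pearson r of log2 CPM 0.991), as did Actb and Actg1 (0.964), Tpm1 and Tpm2 (0.967), and Actb and Tpm4 (0.917). These correlations and those that follow describe 9 libraries that share days, populations and depth. Among 9577 further genes averaging 10 CPM or more, the closest to Acta1 were Mymk, the myoblast fusion protein myomaker (0.999), Tnni1, slow skeletal troponin I (0.998), and H19, a noncoding RNA (0.998). The closest to Actc1 were Mymx, the fusion protein myomixer (0.998), Myog, the muscle transcription factor myogenin (0.995), and Igf2 (0.993). The closest to Actb were Pkm, pyruvate kinase (0.998), and Pafah1b3 (0.994). The closest to Tpm4 were Tacc3, a spindle protein (0.993), Skp2, a subunit of a cell cycle ubiquitin ligase (0.992), and G2e3 (0.987).

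How well each gene can be counted differed. Tpm1 and Tpm2 share no 31-base stretch of their longest transcript with another gene, and Actc1 (0.832%), Acta2 (1.496%) and Acta1 (4.45%) share few. Tpm3 (19.6%), Tpm4 (20.5%), Actb (35.2%) and Actg1 share more, so part of their reads may be assigned elsewhere. Genes whose annotation overlaps Acta1, Actc1 or Tpm4 held at most 74 counts in any library, and strand use in the counting is not given in the sources used here. Acta1 lies at chr8:123891769-123894751, Actc1 at chr2:114047282-114053548, Actb at chr5:142903115-142906754 and Tpm2 at chr4:43514711-43523765 on GRCm38, all on the minus strand and all protein-coding.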

How the data were processed

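The authors deposited 1 table of raw read counts per Ensembl gene for the 9 libraries (poly(A)-selected RNA, TruSeq kit, single reads, per the labels' protocols). HISAT2 2.1.0, CASAVA 1.8 and build mm10 are named, without role, in the submitters' processing notes; the counting program, its annotation and strand setting are not given in the sources used here. Gene symbols, positions, transcript lengths and 31-base stretches came from GENCODE M21 (GRCm38), and 47310 of 47729 identifiers had a symbol.

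Counts were tested with edgeR 4.0.16 (limma 3.58.1, R 4.3.3): genes reaching 1 CPM in 3 or more libraries, TMM scaling, robust quasi-likelihood fit, Benjamini-Hochberg adjustment over 13324 genes, called at an adjusted p-value under 0.05. The additive model (genotype and day, 9 libraries) had 4 residual degrees of freedom; populations stand in for replicates of a day and days for replicates of a genotype, so p-values speak of these populations. The interaction of genotype with day 0 against later days had 2, where 3 had been planned for; the fit with 3, and shares by unique 31-base stretches, are alternatives chosen after seeing the data. A replicate block could not be fitted, as each group has 1 library. Counts behind each value of the 9 genes ran from 28 to 214030, while some markers and actin-binding genes had fewer, down to 0. A count of 0 allows up to 3 counts, 0.0591 to 0.660 CPM by library. Single-library ratios carry exact 95% counting intervals. DESeq2 1.42.0, RLE and library-total scaling, 2 other filters, leaving out each library (for the response, each of the 6 libraries of days 3 and 5) and smaller fits were the alternatives.

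The 9 genes and the lists were chosen with earlier results of these data known. Named were the 9 genes, the 3 genes most correlated with Acta1, Actc1, Actb and Tpm4, both genes of each pair, and from each list the called genes with the largest rise and fall on day 5; Srf, Mrtfa, Mrtfb and Actg2 were named in addition, and 1 gene close to Actb is not reported here. The fit was tested on simulated data.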

Additional observations from a re-analysis of the deposited data

Results flagged for a closer look

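Acta1 and Actc1 were called in the test of a differing response to differentiation in Per2KO and not in Per1KO, and whether the knockouts differ in this was not tested. In Per2KO the change from day 0 to days 3 and 5 exceeded that in WT by 4.81 for Acta1 and 4.77 for Actc1 on the log2 scale. The day 0 levels were 212 CPM in WT and 3.11 in Per2KO for Acta1, and 64.8 and 0.551 for Actc1. Each of those is a single library that the model fits exactly, so the test holds no spread on day 0. With days 3 and 5 taken as 1 state, which leaves 3 residual degrees of freedom, adjusted p in Per2KO was 0.0909 for Acta1 and 0.0649 for Actc1 and neither was called. No group could be checked for a library far from the others, since each holds 1 library.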

How the results depend on the processing

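All 9 genes kept the direction of their day 3 and day 5 changes under every alternative run, except Tpm3 on day 5, and the 8 called on day 5 stayed 8 in all. In the order day 3 and day 5 against day 0, day 5 against day 3, Per1KO and Per2KO against WT, and the response in Per1KO and in Per2KO, the genes called over the whole table without 1 library ranged from 2157 to 6246, 3713 to 7351, 0 to 735, 1167 to 3461, 1157 to 3594, 151 to 4582 and 236 to 4827, against 4664, 6149, 238, 2575, 2652, 56 and 322 with all libraries. Among the 9 genes those without 1 library were 6 to 9, 8, 0 to 1, 0 to 1, 0 to 3, 2 to 4 and 2 to 5. For the responses only libraries of days 3 and 5 could be left out, since each population has 1 day 0 library, and these fits have 1 residual degree of freedom.

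Of 13324 genes tested, DESeq2 called 733 for day 5 against day 3 (2 of the 9). It called 564 for the response in Per1KO (2 of the 9), 859 for that in Per2KO and 1 between the knockouts. In Per2KO against WT it called 3461 genes, 1885 of them lower, and 4 of the 9, all lower. No filter, with 26159 genes tested, gave 370, 364 (2 of the 9), 703 and 1 for the day, response and knockout comparisons in that order. Against WT it gave 2800 genes in Per1KO and 2861 in Per2KO, with 0 of the 9 in either. Library totals gave 2670 genes (0 of the 9) in Per1KO and 2759 (1 of the 9) in Per2KO against WT. For the response in Per1KO they gave 68 genes (1 of the 9). At 10 CPM, 1564 genes (0 of the 9) were called in Per1KO, 1705 (1 of the 9) in Per2KO and 26 for the response in Per1KO. The 6 libraries compared gave 1362 and 1229 (0 of the 9 in each). The knockout libraries alone gave 7479 for day 3 against day 0 and 1355 for day 5 against day 3 (4 of the 9). With days 3 and 5 as 1 state both responses gave 0 genes. The cause of these changes was not tested, beyond the smaller number of libraries or genes in some.

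Direction changed only, among the alternatives run, in log2 fold changes that were not called. Tpm4 in Per2KO was 0.056 with library totals and 0.057 with no filter, and Tpm3 on day 5 was 0.073 in the knockout libraries. Without 1 library, Tpm3 ranged from -0.20 to 0.13 on day 5, from -0.048 to 0.31 in Per1KO and from -0.16 to 0.20 in Per2KO, and Tpm4 from -0.13 to 0.074 in Per1KO and from -0.16 to 0.045 in Per2KO. Actb ranged from -0.26 to 0.035 in Per1KO, Acta2 from -0.025 to 0.58 in Per2KO and Tpm1 from -0.042 to 0.19 in Per2KO. The day 0 levels of Actc1 in the knockouts rest on 68 and 28 counts, and with 1 library per population and day no single day can be tested.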
